A study of Mus musculus with 11 samples.

Results

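The cytochrome P450 genes of families Cyp1, Cyp2 and Cyp3 were examined in livers of db/db mice given an antibody against the glucagon receptor (GCGR) or phosphate-buffered saline (PBS). Members were chosen by name and by detection: a symbol of Cyp1, Cyp2 or Cyp3 followed directly by a letter, and a probe well above background in the liver dye on 5 or more of the 11 arrays. Of 87 annotated mouse genes with such symbols, 57 were matched by 73 probes, and 53 of these genes had a kept probe, among 15953 genes tested in all. The other 30 annotated genes, such as Cyp2a5, Cyp2c40 and Cyp3a41a, were not analysed here. Just inside the detection limit were Cyp2c65, well above background on 7 arrays, and Cyp2c66, on 8 arrays. Just outside were Cyp2ab1 on 3 arrays, Cyp2b19 on 2, Cyp2j11 on 1 and Cyp2b23 on 0. The members comprised 13 Cyp2c, 10 Cyp2d, 8 Cyp3a, 5 Cyp2j, 3 Cyp2a, 3 Cyp2b and 2 Cyp1a genes, with 1 gene from each of the subfamilies Cyp1b, Cyp2e, Cyp2f, Cyp2g, Cyp2r, Cyp2s, Cyp2t, Cyp2u and Cyp2w. One of the Cyp2d entries, Cyp2d37-ps, is a pseudogene.

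The antibody group held 6 arrays (anti-GCGR replicates 1 to 6) of liver from db/db mice given 5 mg/kg of the monoclonal antibody 3c7.v44, and the PBS group held 5 arrays (PBS replicates 1, 3, 4, 5 and 6) of liver from db/db mice given PBS. All mice of both groups carried the db/db genotype, which removes a working leptin receptor and makes mice obese and diabetic, so no lean liver was compared. Age, sex, number of doses and time of sampling are not given in the sources used here. Liver RNA was labelled with the dye Cy5 on all arrays, and set against one commercial pool of mouse RNA labelled with Cy3. Whether the samples were separate mice is not stated, and the p-values then measure only the spread between samples, which may be technical.

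Cytochromes P450 are heme enzymes of the endoplasmic reticulum that insert an oxygen atom into their substrates, with electrons passed on by the reductase encoded by Por. Those of families Cyp1 to Cyp3 oxidise drugs, plant compounds, steroids and fatty acids, and hepatocytes, above all those around the central vein, are their main site. Many are induced through the nuclear receptors CAR (Nr1i3) and PXR (Nr1i2) or through the aryl hydrocarbon receptor (Ahr). In mice, several differ between males and females under the pattern of growth hormone release.

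The median Cy5 signal of the arrays was 85 to 110 in scanner units against a local background of 26 to 27, and the number of arrays limits the precision. Of 10 hepatocyte markers 9 were measured (Tf had no kept probe), 1 fell and 0 rose, and their mean log2 ratio was 5.74 to 5.96 on anti-GCGR arrays and 5.85 to 6.07 on PBS arrays. Of 10 stellate cell and fibroblast markers 5 rose and none fell, with a mean log2 ratio of -0.95 to -0.42 on anti-GCGR arrays and -1.25 to -0.97 on PBS arrays. Among other markers 3 of 10 endothelial, 2 of 10 Kupffer cell, 3 of 6 measured erythroid, 1 of 9 measured lymphocyte, 1 of 9 measured adipocyte and 0 of 10 cholangiocyte genes rose, and 1 adipocyte gene fell. Over all genes 8.99% rose and 5.67% fell in the ratio (limma, adjusted p under 0.05), and these small counts were not tested against that share. The part of these cells in the values that follow was not tested. All antibody arrays lay at other positions on the slides than the PBS arrays, so position and treatment cannot be told apart. One array stood apart: on the first principal component (50.7% of the variance) anti-GCGR replicate 5 was at 12.5, inside the PBS range of 9.92 to 19.2, while the other antibody arrays were at -23.8 to -13.3. Results are therefore given with and without it. It was picked from these same values as the antibody array most like PBS. Leaving it out thus favours larger differences and more calls, and those fits are no independent support.

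The promoters of a few members are shown first, because the members with large differences included closely related Cyp3a genes and Cyp1a2. They come from RefSeq on build GRCm38.p6, which holds a promoter of 300 bases (250 before the start and 50 after) for 44 of the 53 members. The first sequence belongs to Cyp3a44, the member that fell most in the ratio, at chr5:145805825-145806124 on the minus strand. The next belong to 2 of its relatives, Cyp3a41b (chr5:145584681-145584980, minus strand) and Cyp3a16 (chr5:145469674-145469973, minus strand). The last belongs to Cyp1a2 (chr9:57683606-57683905, minus strand). Each is written 5′ to 3′ along its gene, and capitals mark the forkhead-type motif TGTTTAC, searched on both strands.
Cyp3a44: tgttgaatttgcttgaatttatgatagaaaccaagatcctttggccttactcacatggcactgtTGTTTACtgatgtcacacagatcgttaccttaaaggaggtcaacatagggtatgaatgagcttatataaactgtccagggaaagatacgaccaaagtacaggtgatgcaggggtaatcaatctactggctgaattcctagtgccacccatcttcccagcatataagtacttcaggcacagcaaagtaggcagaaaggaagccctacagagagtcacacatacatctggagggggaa
Cyp3a41b: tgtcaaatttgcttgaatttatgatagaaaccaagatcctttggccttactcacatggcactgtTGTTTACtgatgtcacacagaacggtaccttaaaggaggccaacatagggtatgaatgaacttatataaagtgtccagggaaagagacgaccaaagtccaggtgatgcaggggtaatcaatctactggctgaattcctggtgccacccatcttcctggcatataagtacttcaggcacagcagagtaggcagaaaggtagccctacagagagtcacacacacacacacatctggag
Cyp3a16: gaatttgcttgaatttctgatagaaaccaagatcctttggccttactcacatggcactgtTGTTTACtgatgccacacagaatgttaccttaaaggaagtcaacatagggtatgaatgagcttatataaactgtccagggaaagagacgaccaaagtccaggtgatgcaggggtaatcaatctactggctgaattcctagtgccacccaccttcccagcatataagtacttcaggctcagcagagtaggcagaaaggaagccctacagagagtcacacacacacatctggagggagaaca
Cyp1a2: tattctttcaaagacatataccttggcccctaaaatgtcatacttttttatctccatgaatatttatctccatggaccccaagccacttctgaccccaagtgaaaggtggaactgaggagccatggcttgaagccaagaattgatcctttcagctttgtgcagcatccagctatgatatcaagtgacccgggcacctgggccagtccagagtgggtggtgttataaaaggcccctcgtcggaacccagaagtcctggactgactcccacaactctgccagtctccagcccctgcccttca
The Cyp3a44 promoter was identical to that of Cyp3a16 at 93.4% of aligned positions, to that of Cyp3a41b at 92.0% and to that of Cyp3a11 at 71.5%. The motif TGTTTAC occurred in 3.65% of all 32851 promoters in the table and in 8 of the 47 promoters of members, at 17.0%. Those 8 promoters belonged to Cyp2c38, Cyp2c39, Cyp2j5, Cyp3a11, Cyp3a16, Cyp3a41b and Cyp3a44. The promoters of Cyp3a44, Cyp3a41b and Cyp3a16 are near copies of each other, so these matches are not independent. None of the members' promoters held the STAT-type motif TTCNNNGAA, which 8.30% of all promoters held. The dioxin-response core GCGTG was in 9 of 47 against 32.4% of all promoters, and the cAMP-response core TGACG in 2 of 47 against 20.8%. Both strands were searched for each motif, and no motif lies within another. These matches describe letters in a window of 300 bases and no binding.

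The comparison of antibody with PBS asks how the liver's P450 transcripts differ when the glucagon receptor is blocked. Each value is the log2 ratio of liver Cy5 over reference Cy3 on one array, so a difference of 1 is a 2-fold change. Among the 53 members 0 rose and 2 fell, Cyp3a44 and Cyp2g1, and 51 did not pass the threshold (limma, two-sided, Benjamini-Hochberg adjusted p under 0.05 over all 15953 genes). Over all genes 8.99% rose and 5.67% fell, 14.7% in either direction, against 3.77% of the members in either direction. The members' median log2 difference was -0.02, beside 0.01 over all genes, and 24 of 53 members were positive. In 43 members the difference was within 0.25 of 0. Of the 51 that did not pass, 41 had a 95% interval of the difference inside -0.5 to 0.5 and 50 inside -1 to 1. In bulk liver, fewer cells of a type and less RNA per cell cannot be told apart.

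**Figure D1:**
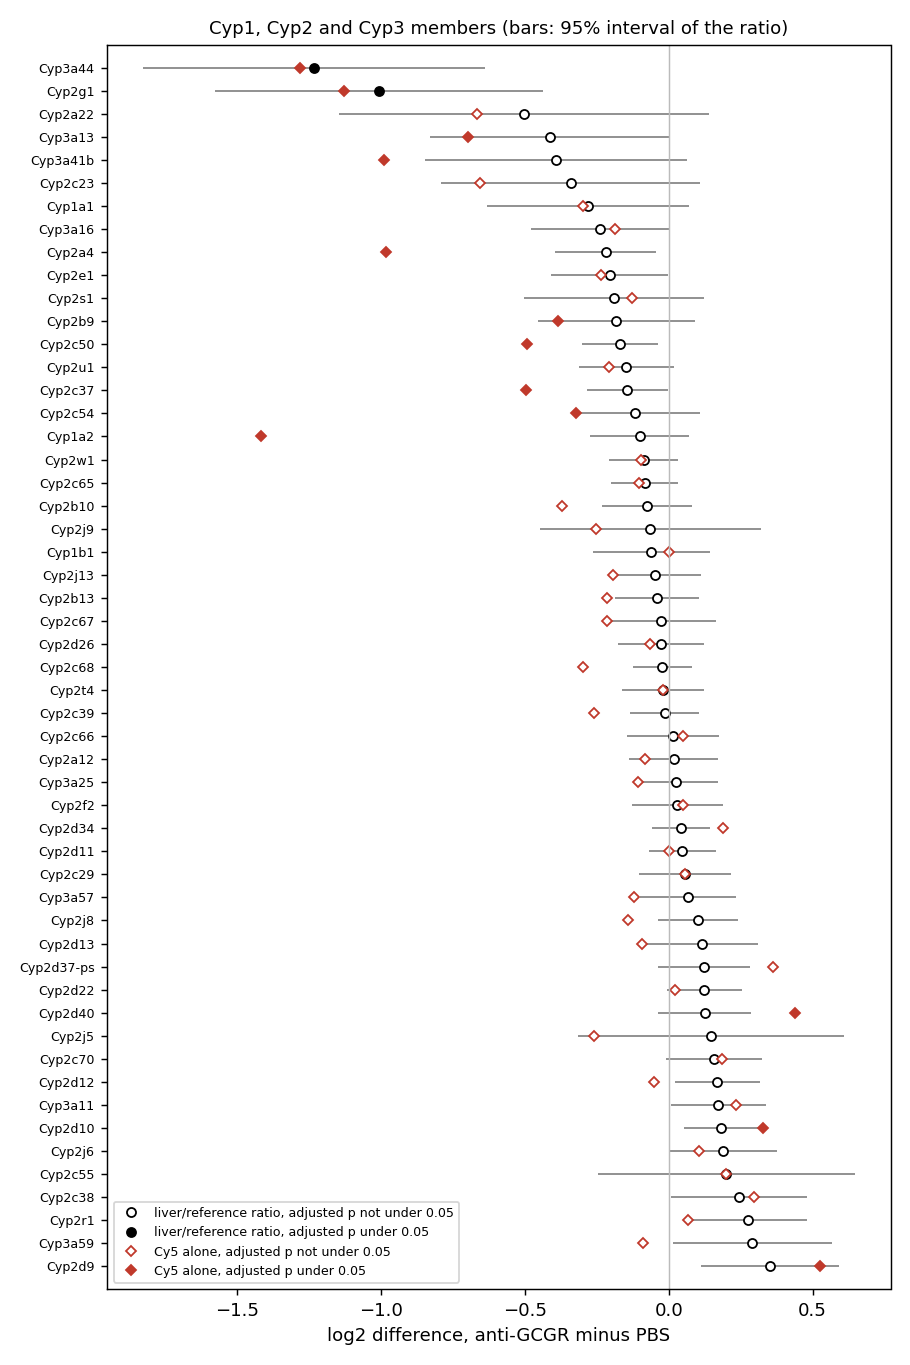
Log2 difference, anti-GCGR minus PBS, for each of the 53 members (one gene per line), as the liver over reference ratio (circles, with bars for the 95% interval) and as the liver dye Cy5 alone (diamonds). Filled symbols have an adjusted p under 0.05 in limma, which in the ratio holds for Cyp3a44 at -1.23 and Cyp2g1 at -1.01 only; Cyp1a2 has the largest gap between its 2 symbols (-0.10 in the ratio, -1.42 in Cy5).

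Cyp3a44, a female-biased mouse member of the steroid and drug oxidising Cyp3a subfamily, showed the largest fall. Its log2 ratio was 1.18, 1.02, 1.16, 0.64, 2.52 and 0.82 on anti-GCGR replicates 1 to 6, against 2.21, 2.67, 2.69, 2.04 and 2.67 on PBS replicates 1, 3, 4, 5 and 6. Only anti-GCGR replicate 5 reached the PBS values, and the other 5 antibody arrays lay below every PBS array. The group means were 1.22 ± 0.67 (SD, n = 6) with the antibody and 2.46 ± 0.31 (SD, n = 5) with PBS. The log2 difference was -1.23 ± 0.27 (SE, limma adjusted p = 0.0138), 2.35-fold lower. An exact permutation test over the 462 splits of the arrays gave a two-sided p of 0.00866 for its ratio, not adjusted for the choice of this member. Without anti-GCGR replicate 5 the difference was -1.49. The reference dye of its probe was well above background on 0 of 11 arrays, while the liver dye was so on all 11. With the scanner software's own ratio the difference was -1.28 and did not pass (adjusted p = 0.135).

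Cyp2g1, best known as an olfactory P450 and female-biased in mouse liver, also fell. Its log2 ratio was 1.74, 2.42, 2.62, 1.66, 2.92 and 1.29 on anti-GCGR replicates 1 to 6, against 3.14, 3.32, 3.23, 2.58 and 3.31 on PBS replicates 1, 3, 4, 5 and 6. PBS replicate 5 lay below anti-GCGR replicates 3 and 5, and the groups overlapped there. The log2 difference was -1.01 ± 0.26 (SE, limma adjusted p = 0.0249), 2.01-fold lower. The call was lost when any of anti-GCGR replicates 1 or 4 or PBS replicates 1, 3, 4 or 6 was left out, with differences of -1.17 to -0.84 over all 11 such fits, and the call on Cyp3a44 was kept in all 11. On the slide that held anti-GCGR replicates 2 and 5 and PBS replicate 5, the difference was 0.09 for Cyp2g1 and -0.27 for Cyp3a44. On the other slides it was -1.48 and -1.36 for Cyp2g1, and -1.54 and -1.68 for Cyp3a44. With the scanner software's ratio Cyp2g1 was at -0.51 and did not pass (adjusted p = 0.480), and its reference dye was well above background on 1 array.

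**Figure D2:**
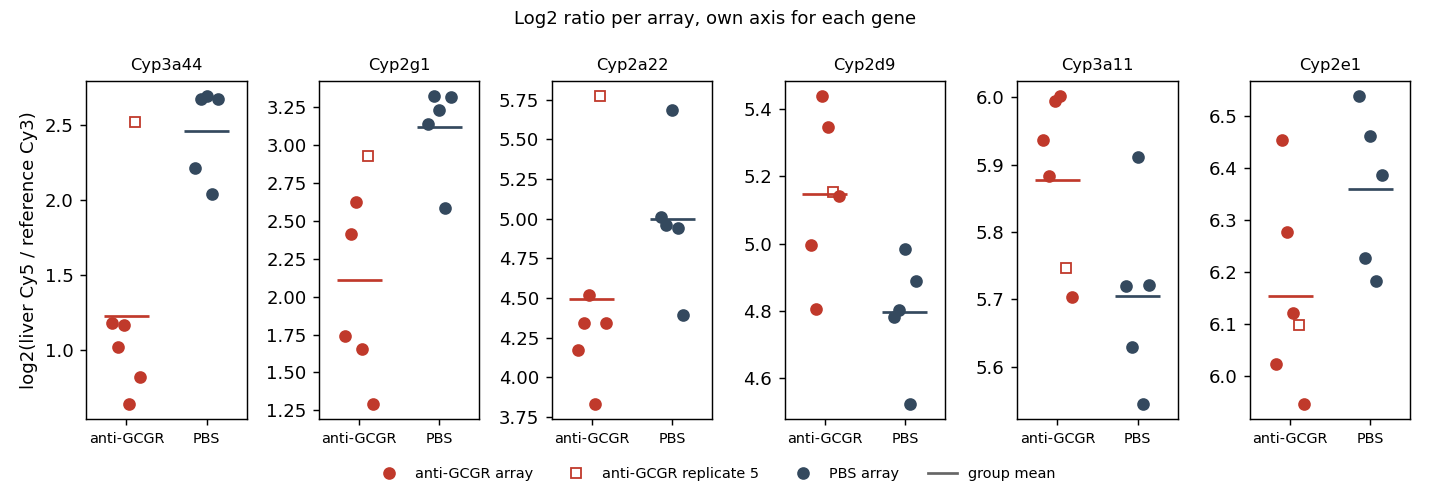
Log2 ratio of liver Cy5 over reference Cy3 on each array for 6 members, anti-GCGR on the left and PBS on the right of each panel, with bars at the group means and an open square for anti-GCGR replicate 5. Each panel has its own axis that does not start at 0; in Cyp3a44 and Cyp2a22 the open square, at 2.52 and 5.77, sits among the PBS arrays or above them.

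Without anti-GCGR replicate 5, 9 members passed the threshold, 5 up and 4 down, or 17.0% of members beside 24.3% of all genes (14.4% up and 9.86% down). That array was left out for its likeness to PBS in these same values, so the added calls are no independent evidence. The 4 lower members were Cyp3a44 and Cyp2g1 together with Cyp2a22 at -0.76 (adjusted p = 0.0136) and Cyp2a4, a female-biased steroid hydroxylase, at -0.26 (adjusted p = 0.0315). The 5 higher members were Cyp3a59 at 0.36, Cyp2d9 at 0.35, Cyp2c38 at 0.31, Cyp2d10 at 0.20 and Cyp2d40 at 0.18, with adjusted p between 0.0300 and 0.0483 in limma. For Cyp3a59 the liver dye itself was not higher. With all arrays its brightest probe was at -0.09 in Cy5 alone and -0.30 in Cy3 alone, and its other kept probe at -0.22 and -0.22. The other higher members were positive in Cy5 alone. Replicate 5 lay nearer to the PBS mean than to the mean of the other antibody arrays in 32 of the 53 members, or 60.4%, as in 60.5% of 15898 genes with values on all arrays. It lay inside the PBS range in 39 members, or 73.6%, beside 61.1% of those genes.

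Among the Cyp3a genes, Cyp3a11, the main PXR-inducible drug oxidase of mouse liver, was at 5.94, 5.88, 5.99, 6.00, 5.75 and 5.70 on anti-GCGR replicates 1 to 6, against 5.72, 5.63, 5.91, 5.55 and 5.72 on PBS replicates 1, 3, 4, 5 and 6. The groups overlapped, and the log2 difference of 0.17 ± 0.08 (SE) did not pass (adjusted p = 0.146), with 0.29 on its other kept probe. Cyp3a13, a Cyp3a enzyme also found in intestine, had a log2 ratio of 6.01 to 7.12 on anti-GCGR arrays and 6.67 to 7.21 on PBS arrays. Its log2 difference was -0.41 ± 0.19 (SE, adjusted p = 0.168), and -0.49 on the other probe. Cyp3a41b, female-biased, had a log2 ratio of 6.58 to 7.70 with the antibody and 7.19 to 7.71 with PBS. The log2 difference was -0.39 ± 0.21 (SE, adjusted p = 0.232). With the scanner software's ratio it was 1.14 with an adjusted p of 0.0306, opposite in sign. The reference dye of its probe was well above background on 6 of 11 arrays. The remaining members Cyp3a16, Cyp3a25, Cyp3a57 and Cyp3a59 had log2 differences of -0.24, 0.02, 0.07 and 0.29. Near-identical genes of this and other subfamilies may bind each other's probes, whose sequences were not used here.

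Of the 10 Cyp2d genes, relatives of the human drug oxidase CYP2D6, 9 had a positive and 1 a negative log2 difference, and 0 passed the threshold in the ratio. With slide as a block 2 of them rose in the ratio, Cyp2d9 at 0.39 (adjusted p = 0.0185) and Cyp2d12 at 0.19 (adjusted p = 0.0272), beside 10.9% of all genes that rose, 6.6% that fell and 17.5% called in either direction in that fit. In single dyes, without the block, Cyp2d12 was at -0.05 in Cy5 (limma adjusted p = 0.685) and -0.18 in Cy3. Its liver dye alone was thus not higher. The count of positive members was 6 of 10 with the Cy5 dye alone and with median centring, and 8 of 10 with the scanner software's ratio. Cyp2d9, a male-biased steroid hydroxylase, had log2 ratios of 5.00, 4.81, 5.44, 5.35, 5.15 and 5.14 on anti-GCGR replicates 1 to 6, against 4.78, 4.80, 4.98, 4.52 and 4.89 on PBS replicates 1, 3, 4, 5 and 6. All but anti-GCGR replicate 2 lay above every PBS array. The log2 difference was 0.35 ± 0.11 (SE, limma adjusted p = 0.0507). It was positive on each slide, at 0.29, 0.46 and 0.44. Cyp2d10 was at 6.70, 6.90, 6.86, 6.72, 6.68 and 6.72 with the antibody and at 6.66, 6.49, 6.63, 6.47 and 6.65 with PBS. It was the 1 member whose groups did not overlap in the ratio, beside 6.66% of all genes, with a log2 difference of 0.18 ± 0.06 (SE, adjusted p = 0.0589). The other Cyp2d members, Cyp2d11, Cyp2d12, Cyp2d13, Cyp2d22, Cyp2d26, Cyp2d34, Cyp2d37-ps and Cyp2d40, had log2 differences of -0.03 (Cyp2d26) to 0.17 (Cyp2d12).

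The 13 Cyp2c genes, which oxidise fatty acids such as arachidonic acid as well as drugs, included 5 positive and 8 negative log2 differences, and 0 passed. They ran from -0.34 in Cyp2c23, an arachidonic acid epoxygenase, to 0.25 in Cyp2c38. Cyp2c29, a CAR-inducible pericentral gene, had a log2 ratio of 7.17 to 7.51 on anti-GCGR arrays and 7.11 to 7.44 on PBS arrays. Its log2 difference was 0.06 ± 0.07 (SE, adjusted p = 0.667). With slide as a block Cyp2c38 rose, with a difference of 0.29 (adjusted p = 0.0370). Cyp2c37 was at -0.14 on its brightest probe and at 0.22 on another, and Cyp2c38 was at 0.25 and -0.23, so these were the 2 members whose kept probes differed in sign. In Cy5 alone the probes of Cyp2c38 were at 0.30 and -0.28 (limma adjusted p = 0.191 and 0.0329 over all kept probes). Cyp2c54 was at -0.12 on its brightest probe and at -0.42 and -0.24 on the others. The remaining Cyp2c39, Cyp2c50, Cyp2c55, Cyp2c65, Cyp2c66, Cyp2c67, Cyp2c68 and Cyp2c70 lay between -0.17 (Cyp2c50) and 0.20 (Cyp2c55).

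Cyp2e1, the pericentral ethanol and acetaminophen oxidase, had log2 ratios of 5.95 to 6.45 on anti-GCGR arrays and 6.18 to 6.54 on PBS arrays. The groups overlapped, and the log2 difference was -0.21 ± 0.09 (SE, adjusted p = 0.158), with -0.09 on its other kept probe. In Cy5 alone the brightest probe was at -0.24 and the other at -0.31 (limma adjusted p = 0.0694 and 0.0272 over all kept probes). In Cy3 alone these probes were at -0.20 and -0.33. Cyp2b10, the standard CAR target of mouse liver, had log2 ratios of 4.13 to 4.49 with the antibody and 4.24 to 4.56 with PBS, a difference of -0.07 ± 0.07 (SE, adjusted p = 0.539). Its relatives Cyp2b9 and Cyp2b13 were at -0.18 and -0.04. Cyp2f2, the periportal and lung naphthalene oxidase, had log2 ratios of 6.43 to 6.63 with the antibody and 6.27 to 6.70 with PBS, a difference of 0.03 ± 0.07 (SE, adjusted p = 0.824).

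Cyp2a22 was at 4.17, 4.34, 4.52, 3.83, 5.77 and 4.35 on anti-GCGR replicates 1 to 6, against 5.01, 4.96, 5.69, 4.94 and 4.39 on PBS replicates 1, 3, 4, 5 and 6. Anti-GCGR replicate 5 was above every PBS array, and PBS replicate 6 was among the other antibody arrays. The log2 difference was -0.50 ± 0.30 (SE, adjusted p = 0.282), and its reference dye was well above background on 0 arrays. Among the rest, Cyp2a12, Cyp2a4 and the Cyp2j genes Cyp2j5, Cyp2j6, Cyp2j8, Cyp2j9 and Cyp2j13, of the subfamily known for arachidonic acid epoxygenases, lay between -0.22 (Cyp2a4) and 0.19 (Cyp2j6). Cyp2r1, a vitamin D 25-hydroxylase, was at 0.27 ± 0.10 (SE, adjusted p = 0.0693), and its ratio rose by 0.28 with slide as a block (adjusted p = 0.0361). In single dyes its brightest probe was at 0.07 in Cy5 and -0.15 in Cy3, and its other kept probe at 0.15 and 0.00. Neither probe passed in Cy5. Cyp1a1 and Cyp1b1, targets of the aryl hydrocarbon receptor, were at -0.28 and -0.06. Cyp2s1, Cyp2t4, Cyp2u1 and Cyp2w1 lay between -0.19 (Cyp2s1) and -0.02 (Cyp2t4).

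The spread between arrays varied widely among members. The SD of the log2 ratio over antibody arrays was 0.04 to 0.67 (median 0.13) and over PBS arrays 0.06 to 0.51 (median 0.14). It was larger with the antibody in 25 of 53 members. Without anti-GCGR replicate 5 the antibody SD was 0.04 to 0.55 (median 0.12) and the larger one in 20 of 53. The widest in the antibody group were Cyp3a44 and Cyp2a22, both at 0.67, but 0.23 and 0.26 without replicate 5. The widest without it was Cyp2g1 at 0.55, and the widest in the PBS group was Cyp2j5 at 0.51.

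The ratio and the liver dye taken alone gave different pictures. With the Cy5 signal alone, quantile normalised between arrays, 13 members passed, or 24.5% beside 14.4% of all genes. Of these 3 rose (beside 7.38% of all genes) and 10 fell (beside 7% of all genes). The members' median was -0.12 in log2 difference, against 0.00 over all genes, and 16 of 53 members were positive. Lists of other hepatocyte genes also had negative medians in Cy5 alone. The median was -0.14 for the 9 hepatocyte markers (3 fell and 2 rose), -0.30 for 20 further pericentral genes (7 fell and 1 rose) and -0.33 for 20 further periportal genes (6 fell and 2 rose). In the ratio the medians of these lists were negative too, at -0.08, -0.24 and -0.16. Among the members, the risers in Cy5 were Cyp2d9 at 0.53, Cyp2d40 at 0.44 and Cyp2d10 at 0.33. The members that fell were Cyp1a2 at -1.42, Cyp3a44 at -1.28, Cyp2g1 at -1.13, Cyp3a41b and Cyp2a4 both at -0.99, Cyp3a13 at -0.70, Cyp2c37 at -0.50, Cyp2c50 at -0.49, Cyp2b9 at -0.39 and Cyp2c54 at -0.32. The other kept probes of Cyp3a13 and Cyp2c37, at -0.72 and -0.29 in Cy5, did not pass (limma adjusted p = 0.0899 for each over all kept probes). Those of Cyp2a4 and Cyp2c54 did pass. Cyp2a4, Cyp2b9, Cyp2c37, Cyp2c50, Cyp2c54, Cyp2d10 and Cyp2d40 were singled out for closer checks only after their Cy5 values were seen. Without anti-GCGR replicate 5, 23 members passed, 4 up and 19 down, or 43.4% beside 25.1% of all genes (13.4% up and 11.7% down). In Cy5 the groups did not overlap in 2 members (beside 6.52% of all genes), Cyp2c50, which was lower with the antibody, and Cyp2d10, which was higher.

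Cyp1a2, the pericentral caffeine and arylamine oxidase, differed most between the ratio and the liver dye. Its log2 Cy5 signal was 10.51, 11.49, 11.55, 11.22, 13.05 and 11.47 on anti-GCGR replicates 1 to 6, against 12.74, 13.54, 12.91, 12.48 and 13.16 on PBS replicates 1, 3, 4, 5 and 6. All antibody arrays but replicate 5 lay below every PBS array. The log2 difference in Cy5 was -1.42 ± 0.35 (SE, limma adjusted p = 0.0199), 2.67-fold lower, and -1.72 without replicate 5. Its Cy3 signal, from the reference RNA that is the same on all arrays per the labels, was 7.07, 7.70, 7.77, 7.59, 8.95 and 7.63 on anti-GCGR replicates 1 to 6, against 8.72, 9.50, 8.89, 8.59 and 8.98 on PBS replicates 1, 3, 4, 5 and 6. The Cy3 signal was thus low and high on the same arrays as Cy5, replicate 5 included, and differed by -1.15 between the groups (adjusted p = 0.0406). The log2 ratio was 3.79, 4.12, 4.13, 3.94, 4.22 and 4.10 with the antibody and 4.17, 4.06, 4.19, 4.02 and 4.31 with PBS. The groups overlapped in the ratio, and the difference was -0.10 ± 0.08 (SE, adjusted p = 0.436). The ratio with median centring in place of loess gave -0.34 (adjusted p = 0.0279).

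**Figure D3:**
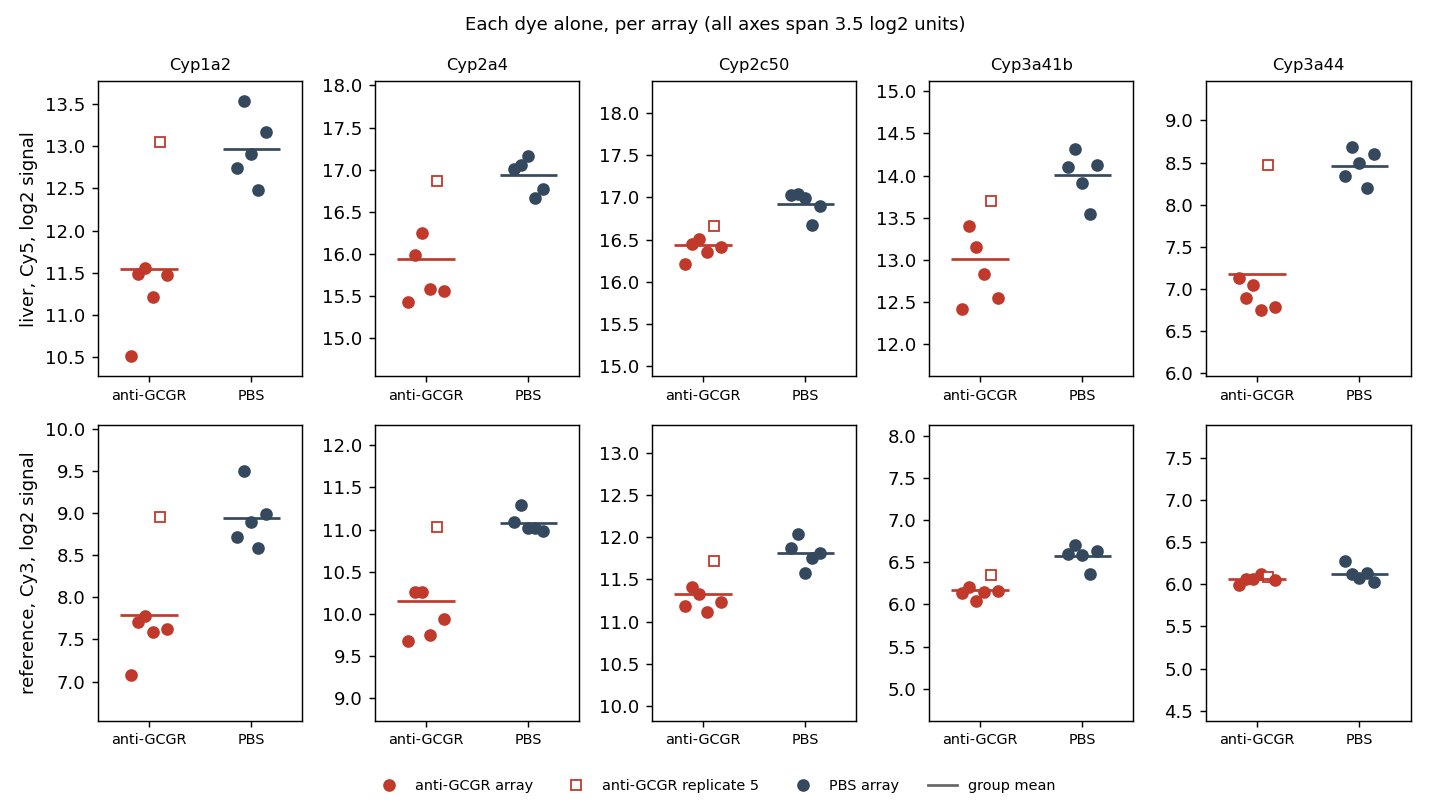
Log2 signal of each array for 5 members, with the liver dye Cy5 in the upper panels and the reference dye Cy3 in the lower ones, anti-GCGR on the left and PBS on the right. Every axis spans 3.5 log2 units and none starts at 0; in Cyp1a2, Cyp2a4 and Cyp2c50 the reference dye is lower on the antibody arrays as well, by -1.15, -0.93 and -0.48, while in Cyp3a44 it is near background on all arrays, where no difference can be read.

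The reference dye also differed for other members. With Cy3 alone, 4 members passed and all fell, or 7.55% beside 1.55% of all genes (0.426% up and 1.13% down): Cyp1a2, Cyp2a4 at -0.93 (adjusted p = 0.0292), Cyp2c50 at -0.48 (adjusted p = 0.0343) and Cyp3a41b at -0.40 (adjusted p = 0.0107). For Cyp3a41b the Cy3 signal was well above background on only 6 of 11 arrays, at 6.04 to 6.71 in log2. Its Cy3 difference is therefore uncertain. Cyp2a4 had a log2 Cy5 signal of 15.44 to 16.86 with the antibody and 16.66 to 17.17 with PBS. Its Cy3 signal was 9.68 to 11.03 with the antibody and 10.99 to 11.29 with PBS. In both dyes the values of the groups met only through anti-GCGR replicate 5. The ratio of Cyp2a4 differed by -0.22 (adjusted p = 0.0878). Its second probe gave -1.16 in Cy5, -1.04 in Cy3 and -0.13 in the ratio. Over all genes that passed in Cy5, the median share of the Cy5 difference also seen in Cy3 was 0.084 for 1847 genes with a mean log2 ratio under 2. It was 0.117 for 261 genes at 2 to 4 and 0.389 for 187 genes over 4. The part of the reference dye in the Cy5 results was not tested. In the risers Cyp2d10, Cyp2d9 and Cyp2d40 the Cy3 difference was 0.07, 0.27 and 0.31, none of which passed. For Cyp3a44 and Cyp2g1 the Cy3 signal was near background on nearly all arrays, so a difference in it could not be seen.

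**Figure D4:**
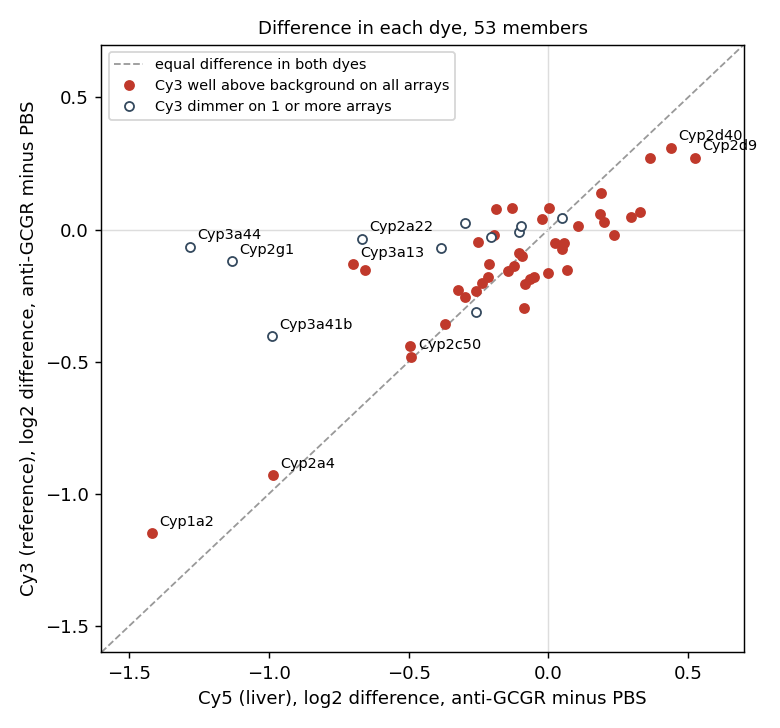
Log2 difference, anti-GCGR minus PBS, in the reference dye Cy3 (vertical) against that in the liver dye Cy5 (horizontal), one point for each of the 53 members, with a dashed line where both are equal. Filled points had Cy3 well above background on all 11 arrays (42 members) and open points on fewer (11 members); Cyp1a2 (-1.42, -1.15) and Cyp2a4 (-0.99, -0.93) lie near the line, and for open points such as Cyp3a44 and Cyp2g1 the height is limited by the background.

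The following counts stand beside 8.99% of all genes that rose and 5.67% that fell in the ratio, and 7.38% that rose and 7% that fell in Cy5 alone. Grouped by regulation, the 11 measured female-biased members included 2 that fell and 0 that rose in the ratio, with a median log2 difference of -0.18, and 6 that fell in Cy5 alone (Cyp2a4, Cyp2b9, Cyp2c37, Cyp2g1, Cyp3a41b and Cyp3a44), with a median of -0.39. Of 6 male-biased members 0 passed in the ratio (median 0.04), and Cyp2d9 rose in Cy5 alone (median -0.04). Of 12 members inducible through CAR or PXR, Cyp3a44 fell in the ratio (median -0.13), and 6 fell in Cy5 alone. Of 4 members inducible through the aryl hydrocarbon receptor 0 passed in the ratio (median -0.15), and Cyp1a2 fell in Cy5 alone. Of 13 pericentral members 0 passed in the ratio (median -0.01), and 1 rose and 4 fell in Cy5 alone. The lists share members, and their genes are relatives, so the counts are not independent.

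Genes outside the family that serve or regulate these enzymes were counted in the ratio in the same way, beside 14.7% of all genes called in either direction. Of 16 genes of electron transfer and heme supply, Cyb5r3, the cytochrome b5 reductase, rose, with a log2 difference of 0.61 (adjusted p = 0.0313 in limma), and 15 did not pass. Por was at -0.45 (adjusted p = 0.101). Of 23 xenobiotic receptors and partners 3 rose and 2 fell. The risers were Tiparp, a repressor of the aryl hydrocarbon receptor, at 0.72, Ppara, the fatty acid receptor, at 0.32 and Nr1h4, the bile acid receptor, at 0.23. The members that fell were the coactivator Ppargc1a at -0.80 and Ahr at -0.33. CAR (Nr1i3) was at 0.04 (adjusted p = 0.692) and PXR (Nr1i2) at 0.13 (adjusted p = 0.638).

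Of 18 measured CAR and PXR targets other than the members, the microsomal epoxide hydrolase Ephx1 at 0.32 and the stress gene Gadd45b at 0.22 rose, and the imprinted noncoding RNA Meg3 fell, at -2.53. Of 8 measured targets of the aryl hydrocarbon receptor only Tiparp passed. Of 20 further pericentral genes 1 rose, Blvrb at 0.63, and 5 fell, the largest being the ornithine aminotransferase Oat at -2.08, Lhpp at -1.33 and Ang at -1.05. Of 20 further periportal genes 2 rose, Apoa4 at 1.48 and Hsd17b13 at 0.35, and 2 fell, the urea cycle enzyme Ass1 at -0.81 and the liver glutaminase Gls2 at -0.72.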

How the data were processed

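Liver RNA of 11 samples was measured on 2-colour arrays. The scanner files hold, per the file headers, the median spot and background intensity of both dyes and the log10 ratio of Cy5 over Cy3 from Agilent Feature Extraction 11.5.1.1 (version 11 per the submitters' processing notes). Marks of spot quality (0 or 1, per the file headers) come with them. A table of log2 ratios per probe was deposited too. Set against the scanner files these ran as Cy5 over Cy3 on a log2 scale with no centring per gene, and the median gap to the ratios of this work was 0.00318 (largest 0.457). How the authors processed them is not given in the sources used. Their column medians were -0.00096, 0.0075, 0.0015, -0.0028, 0.0054 and 0.0013 for anti-GCGR replicates 1 to 6, and -0.0026, 0.0022, 0.00079, 0.0081 and 0.00021 for PBS replicates 1, 3, 4, 5 and 6.

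In R 4.3.3, limma 3.58.1 corrected the background by normexp (offset 50), and each array was normalised by loess, leaving out control spots from the loess curve and uneven spots. No spot was saturated. Probes were named through RefSeq accessions in a table of assembly GRCm38.p6 (26581 probes of 20144 genes, with 12848 probes unmatched). Kept probes were well above background in the liver dye on 5 or more of the 11 arrays, and the brightest kept probe stood for its gene. Groups, taken from the sample titles, were compared with lmFit and eBayes, and errors are moderated standard errors. Tested on simulated data with this comparison over 15953 genes, the fit recovered 98% of genes changed by 1 and 90% of genes changed by 0.5 on the log2 scale, with 8 false calls. The simulated noise was independent between arrays, and each change was put into all antibody arrays alike. No slide effect and no array set apart, as anti-GCGR replicate 5 was, were simulated, so recovery in these data may differ. The single-dye fits used normexp log2 signals, quantile normalised between arrays. Cy3 alone, Cy5 alone without anti-GCGR replicate 5 and Cy5 median centred were chosen after seeing the data. Other alternatives changed the background correction, the normalisation, the probe filter, the probe rule, the block and the arrays included. The members and lists were chosen with earlier results of these data known. All members are named, with values per array or their range for those called in the ratio, the largest changes and a set of well-known genes. From the other lists at most 3 called genes per direction are named, and Por, Nr1i2 and Nr1i3 beside them. Deviations of antibody and PBS arrays with equal replicate numbers had correlations of -0.13 to 0.14, and no number was closest to its own. Arrays of equal number lay on the same slide. These values cannot exclude a pairing by number, and the main fit used none.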

Additional observations from a re-analysis of the deposited data

Results flagged for a closer look

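Closer checks covered 19 members: those called in the ratio or in Cy5 alone, those with the largest ratio differences, and some well-known genes. Among 76 sets of values (the ratio and Cy5 alone of these members in each group), 8 held an outlying array, whose gap to its nearest neighbour exceeded Dixon's 95% critical value. Chance gives about 1 in 20 for a single set. The ratio and Cy5 come from the same arrays, so the sets are not independent. Of these 8, 4 came from anti-GCGR replicate 5. It was at 5.77 in the log2 ratio of Cyp2a22, where the next antibody array was at 4.52, and at 11.45 in its log2 Cy5 signal, where the next was at 10.19. In Cyp3a44 it was at 2.52 in the log2 ratio and at 8.47 in the log2 Cy5 signal, with the next antibody arrays at 1.18 and 7.13. PBS replicate 5 was low in the log2 ratio of Cyp2g1 at 2.58 and of Cyp3a41b at 7.19, with the next PBS arrays at 3.14 and 7.61. PBS replicate 4 was high in the log2 ratio of Cyp2b9 at 5.27 and in the log2 Cy5 signal of Cyp2f2 at 17.27, with the next PBS arrays at 4.95 and 16.98.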

How the results depend on the processing

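The count of 0 risers and 2 fallers among members was the same without background correction, with the authors' deposited ratios, without a filter on dim probes and with the mean of all kept probes. It was 0 and 4 with median centring, 1 and 1 with the scanner software's ratio, 3 and 10 with Cy5 alone, 4 and 19 with Cy5 alone without anti-GCGR replicate 5, 1 and 9 with Cy5 median centred, 1 and 2 with probes well above background on all 11 arrays, and 4 (Cyp2c38, Cyp2d9, Cyp2d12 and Cyp2r1) and 2 with slide as a block. Leaving out single arrays gave 0 to 5 risers and 1 to 4 fallers, with 9 members called without anti-GCGR replicate 5 and 4 fallers without PBS replicate 5. With the replicate number as a block, the members gave 1 riser (Cyp2d9) and 0 fallers, with adjusted p of 0.0640 for Cyp3a44 and 0.0666 for Cyp2g1. Over all genes, 1434 rose and 904 fell, against 581 and 2146 with median centring, 978 and 1185 with the scanner ratio, 1178 and 1117 with Cy5 alone, 2140 and 1861 with Cy5 alone without anti-GCGR replicate 5, 572 and 718 with Cy5 median centred, and 715 and 335 with the replicate block. Leaving out single arrays gave 793 to 2298 up and 459 to 1573 down. The members' median was -0.15 in Cy5 without anti-GCGR replicate 5, -0.17 in Cy5 median centred and 0.12 within the slide of PBS replicate 5. Of all 53 members, 9 had the other sign with median centring, 12 with the scanner ratio, 10 with Cy5 alone and 0 to 5 with single arrays left out. Among the 19 members taken for closer checks, some signs turned, in values that did not pass except where given. They turned for Cyp2c29 (-0.053) and Cyp2f2 (-0.041) with median centring. With the scanner ratio they turned for Cyp1a2 (0.19), Cyp2b9 (0.15), Cyp2c54 (0.074), Cyp2f2 (-0.015) and Cyp3a41b (1.14, adjusted p = 0.0306). Signs turned for Cyp2c37 (0.037) with the mean of probes, and for Cyp2f2 without PBS replicate 3 (-0.023, in a range of -0.023 to 0.084 over single arrays left out). They also turned for Cyp2c29 (-0.031) and Cyp2f2 (-0.014) in Cy5 median centred, for Cyp2c29 (-0.051), Cyp2f2 (-0.073) and Cyp3a11 (-0.020) in Cy3 alone, and, with no test, for Cyp2g1 (0.087) within the slide of PBS replicate 5. The cause was not tested in any of these. A reference dye near background limits the ratio in 11 members, Cyp3a44 and Cyp2g1 among them.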
